A study of Drosophila melanogaster with 2 samples.

Results

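The regions described here are all those on chromosome 4 of Drosophila melanogaster in a pooled list of candidate regions for binding of the protein ADD1 (gene CG8290). They were chosen by chromosome alone, with no measured value, and numbered 806 of 30000 regions in the pooled list. The optimal list holds 2478 of the pooled regions, deposited as those past the threshold of IDR (irreproducible discovery rate). IDR is a method that scores how well peaks repeat between replicates. The lowest pooled signal (the deposited value for a region) in the optimal list was 132.916, and the highest outside it was 132.902. The list therefore held the 2478 regions of highest pooled signal, and each share of optimal regions below is a share above that cutoff. Of the chromosome 4 regions, 46 were in it, and they are called optimal peaks below. That is 5.71% of the chromosome 4 regions (95% exact interval 4.21 to 7.54), beside 8.26% of the whole pooled list.

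The assay was chromatin immunoprecipitation with sequencing (ChIP-seq) on whole embryos aged 0 to 14 hours, both sexes together, of a stable transgenic fly line whose CG8290 protein carries GFP at the C terminus. There was 1 group, with 2 samples labelled biological replicates 2 and 3, sonicated to 200 to 800 bp, and no input or untagged sample was analysed here. The labels conflict: the free-text description of the samples calls them input controls, while the assay title and the antibody field name a transcription factor ChIP-seq for CG8290, and the lists hold peaks. Which of these is right cannot be told from the lists, so a "peak" means a region called in the deposited lists. The embryos carried the tagged protein in every cell type that expresses it, and its level relative to the untagged protein was not measured in these lists.

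ADD1 is a chromatin protein with an ADD domain, the histone H3-binding fold also found in ATRX proteins, and it is a partner of HP1a, the protein that binds methylated histone H3 lysine 9 in heterochromatin. Chromosome 4, the small "dot" chromosome of the fly, carries HP1a and methylated histone H3 lysine 9 along most of its length, interspersed with transposable elements, yet most of its genes are expressed. The chromosome-specific protein POF binds those genes and raises their output. Active start sites on this chromosome interrupt the heterochromatin marks, and it holds genes of many kinds, from ribosomal protein and translation genes to regulators of eye, limb and nervous system development.

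The sequences of 7 optimal peaks are shown because the results turn on them: the strongest peak on the chromosome, the 4 strongest promoter peaks, and 2 of the 3 peaks that hold the full site of DREF, a factor of housekeeping promoters. Each is the 121 bases centred on the summit, 5′ to 3′ on the plus strand of RefSeq dm6. Capitals mark matches on either strand to the factor motifs searched. The DREF letters were TATCGATA. The BEAF-32 core, CGATA, lies inside every DREF match. The GAGA factor's letters were GAGAG and the Pho core was GCCAT. The TATA box was searched as TATAAA. The Motif 1, E-box and Zelda letters, given with their shares below, had no match in these sequences. Repeats of AT and CA were counted as well and are not in capitals.
distal zfh2 peak chr4:497848-497968: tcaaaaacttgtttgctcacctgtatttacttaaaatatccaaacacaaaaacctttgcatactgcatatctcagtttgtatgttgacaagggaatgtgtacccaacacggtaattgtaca
toy promoter chr4:989526-989646: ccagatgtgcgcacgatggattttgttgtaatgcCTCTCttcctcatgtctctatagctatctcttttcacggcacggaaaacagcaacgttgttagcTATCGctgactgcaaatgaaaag
RpS3A promoter chr4:67152-67272: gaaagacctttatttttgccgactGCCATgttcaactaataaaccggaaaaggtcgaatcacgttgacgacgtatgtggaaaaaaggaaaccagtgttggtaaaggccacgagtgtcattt
Gyf promoter chr4:867086-867206: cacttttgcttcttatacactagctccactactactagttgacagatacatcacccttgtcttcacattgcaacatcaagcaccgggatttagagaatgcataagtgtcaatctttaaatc
ci and asRNA:CR43957 promoter chr4:56428-56548: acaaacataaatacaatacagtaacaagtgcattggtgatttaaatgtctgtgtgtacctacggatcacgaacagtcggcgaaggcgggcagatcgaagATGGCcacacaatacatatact
ci to RpS3A intergenic peak chr4:63442-63562: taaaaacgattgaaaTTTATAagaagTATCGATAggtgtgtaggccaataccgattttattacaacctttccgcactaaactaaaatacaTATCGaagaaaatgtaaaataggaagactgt
Crk promoter chr4:210146-210266: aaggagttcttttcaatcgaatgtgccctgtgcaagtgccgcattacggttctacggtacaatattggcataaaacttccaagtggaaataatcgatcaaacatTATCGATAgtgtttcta
Within the 121 printed bases, the zfh2 and Gyf sequences held none of these factor motifs. The toy sequence held a GAGA and a BEAF-32 match, of these motifs the RpS3A and ci sequences held the Pho core alone, and the intergenic and Crk sequences held DREF matches. A match is a description of the letters and not a binding site.

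Candidate regions were denser on chromosome 4 than on any other chromosome. It carried 598 pooled regions per Mb, against 185 to 245 per Mb on 2L, 2R, 3L, 3R and X. Chromosome 4 was also the densest in each replicate's own list, with 540 per Mb in replicate 2 (range elsewhere 194 to 242) and 590 per Mb in replicate 3 (184 to 256). The regions covered 24.0% of the chromosome, against 7.54% to 10.03% of the others. Optimal peaks stood at 34.1 per Mb, against 16.9 to 19.2 elsewhere. The density was higher although annotated start sites were not: 133.5 per Mb, against 159.7 to 191.4. Other features of the chromosome differ too, and their part in the density was not tested: transposable elements made up 24.8% of its bases (4.06% to 7.74% elsewhere) and its GC content was 34.8% (41.4% to 42.6%). With 1 group of 2 replicates and no read counts, no test of these differences was made, and the intervals given cover counting error only. All lists hold a limited number of regions, so a density is a share of that total and not an amount of protein.

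**Figure D1:**
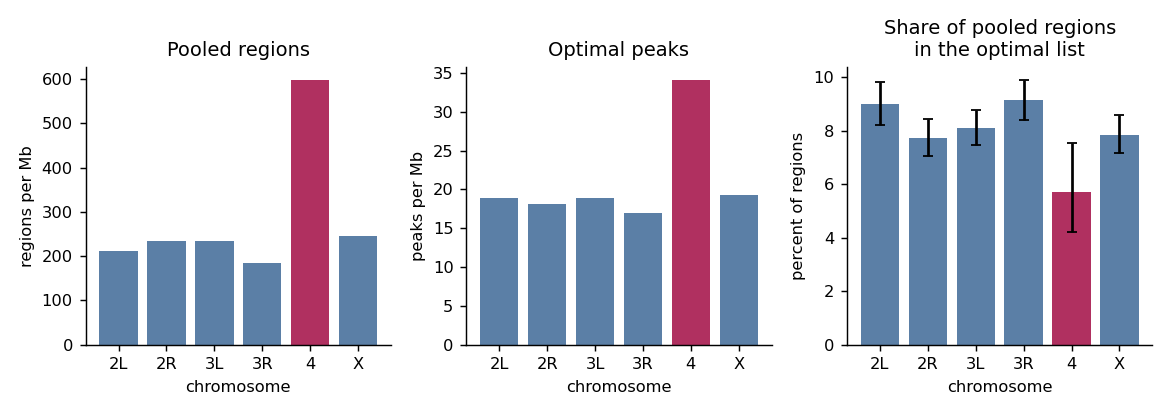
Pooled regions per Mb, optimal peaks per Mb and the percent of pooled regions that were optimal (with 95% exact intervals), by chromosome, with chromosome 4 in red. Chromosome 4 is highest in both densities, at 598 and 34.1 per Mb, and lowest in the percent optimal, at 5.71%.

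Most chromosome 4 regions were weak. The signal, the authors' deposited value for a region, ran from 33.0 to 837 on chromosome 4 with a median of 52.4, and the median elsewhere was 49.4. Only 13.6% of chromosome 4 regions were among the first 5000 of the pooled ranking, against 16.8% of the regions elsewhere, while 35.2% and 33.3% were among the first 10000. At the other end, 27.2% lay beyond place 20000, against 33.5%. The chromosome's regions therefore sat more in the middle of the ranking and less at both ends. Neighbouring summits were 1044 bp apart at the median, against 1624 to 1796 bp on the other chromosomes, and 337 of the 806 regions overlapped another region, so neighbours are not independent. Among optimal peaks the median signal was 169 on chromosome 4 and 185 elsewhere, and 19.6% (9 of 46) exceeded a signal of 200, against 40.7%.

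At promoters, a larger share of chromosome 4 regions than of regions on the arms was in the optimal list, and away from promoters a smaller share. A promoter region is one whose summit lies within 500 bp of an annotated start site. Of 148 such regions on chromosome 4, 34 were optimal (22.97%, 16.5 to 30.6), and the replicates' own strongest 2478 regions gave 24.1% and 20.8%. On the arms the share was 15.7% (1370 of 8703), and 17.3% and 15.2% in replicates 2 and 3. In pericentric sequence, the heterochromatin next to the centromeres, it was 12.6% (30 of 239, 8.63 to 17.4), and 14.9% and 7.93% in the replicates. Chromosome 4 was the highest of the 3 in each list, but the arms lay below its interval in the pooled list only: in the replicates the chromosome 4 intervals, 17.2 to 32.1 and 14.7 to 28.0, held the shares of the arms, and the pericentric interval overlapped that of chromosome 4 in the pooled list. Of the 658 regions away from promoters, 12 were optimal (1.82%, 0.946 to 3.16), against 5.83% on the arms and 0.501% in pericentric sequence. Replicates 2 and 3 gave 2.71% and 2.65% on chromosome 4, 5.64% and 5.61% on the arms, and 1.26% and 0.729% in pericentric sequence. In introns, 3 of 287 regions were optimal on chromosome 4 (1.05%, 0.216 to 3.02), against 6.76% on the arms. As a result 73.9% of optimal peaks on chromosome 4 (58.9 to 85.7) were at promoters, against 57.6% on all other chromosomes together. In pericentric sequence the share was near that of chromosome 4, at 68.2% (30 of 44, 52.4 to 81.4). In optimal peaks per Mb of sequence of that kind, promoters of chromosome 4 held 235, promoters of the arms 77.7 and pericentric promoters 85.3, whereas introns held 5.22, 14.9 and 0.139.

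**Figure D2:**
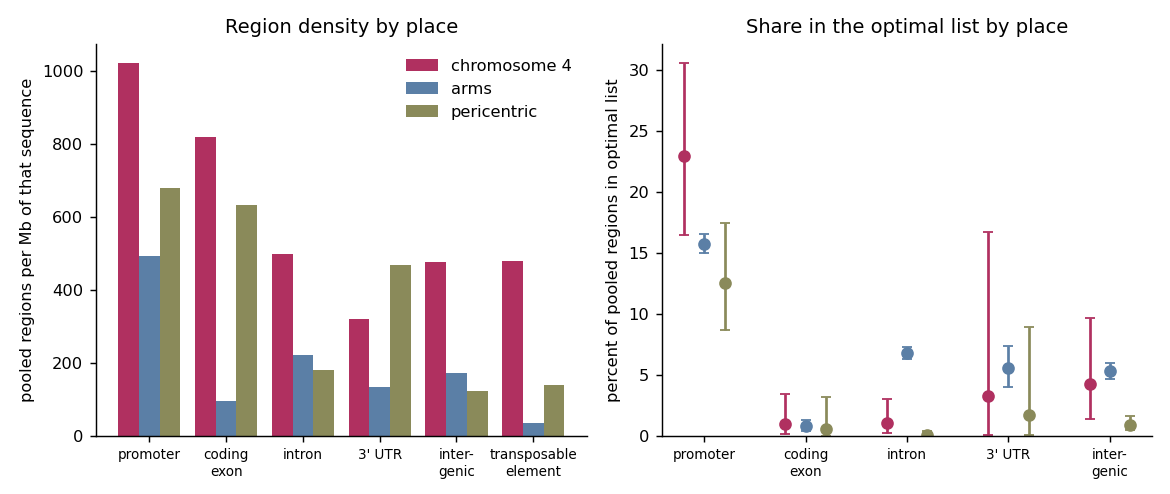
Regions of chromosome 4, the arms and pericentric sequence by where the summit lies: bars give pooled regions per Mb of sequence of that kind, and points the percent of pooled regions in the optimal list, with 95% exact intervals. Promoters held 1022 regions per Mb on chromosome 4 and 493 on the arms. Promoter regions on chromosome 4 were optimal in 22.97%, and regions away from promoters in 1.82%.

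Coding exons held a larger share of candidate regions than elsewhere. They took 207 of the 806 summits (25.7%), against 6.48% of summits on the arms and 5.74% in pericentric sequence, and replicates 2 and 3 gave 24.5% and 25%. Coding exons made up 18.8% of the bases of chromosome 4, 15.6% of the arms and 1.53% of pericentric sequence. Their share of summits was thus 1.37 times their share of bases on chromosome 4, 0.416 times on the arms and 3.75 times in pericentric sequence. Relative to bases, pericentric sequence was therefore the highest. Per Mb of coding exon, chromosome 4 held 818 regions, the arms 95.03 and pericentric sequence 633. By this measure pericentric coding exons were nearer to those of chromosome 4 than the arms were. As elsewhere, few were optimal: 2 of 207 (0.966%), against 0.767% on the arms and 0.575% in pericentric sequence. The genes with the most were bt, with 17, which encodes the giant muscle protein projectin, unc-13, which primes synaptic vesicles, with 12, and CG33978 with 10. Cadps, which acts in dense-core vesicle release, and MED26, a Mediator subunit, had 6 each. Over the whole gene body, Cadps held 33 pooled regions, bt 31, CG32017 27, unc-13 25 and the kinesin gene Kif3C 24.

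Counted over all annotated element bases, transposable elements held fewer candidate regions per Mb than the chromosome as a whole. They held no summit of an optimal peak. Of the 806 summits, 160 (19.9%) lay inside an annotated element, against 0.608% on the arms and 13.5% in pericentric sequence, and the replicates gave 18.4% and 17.8%. Elements made up 24.8% of the chromosome's bases, so that they held 479 regions per Mb, against 598 over the whole chromosome. Those bases include the terminal stretch from 1272991, 75141 bp long and 97.1% element, which held no region at all. The lower density was also not shared by every family. INE-1 held 82 of the 160 regions in 97419 of the 0.334 Mb of element bases, a larger part of the regions than of the bases. In pericentric sequence elements held 139 regions per Mb, against 169 over all bases, and on the arms 34.1 against 228. Their signal was low, with a median of 45.8 inside elements and 54.1 outside. None of the 46 optimal summits lay in an element, against 0.0822% of those elsewhere, and among the strongest 2478 regions of replicates 2 and 3 the chromosome 4 shares were 0% and 4.08%. Reads from repeated copies may be placed or discarded differently by an aligner, and how that was done here is unknown from the lists and labels.

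The strongest peak on the chromosome was not at a promoter. It lay at chr4:497749-498067, between Asator and zfh2, 3902 bp upstream of the start of zfh2, a zinc-finger homeodomain factor, and 8914 bp from that of Asator. Its signal was 837 in the pooled list, 433 in replicate 2 and 394 in replicate 3, and its rank was 20, 19 and 24 of the respective lists. It was also the narrowest region, at 319 bp where all the others on the chromosome were 444 bp. The next chromosome 4 peak had a signal of 338.

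That next peak was at the promoter of toy, a Pax6 factor of eye specification, 139 bp upstream of its start. Its signals were 135 in replicate 2 and 204 in replicate 3, at ranks 535 and 171. RpS3A, a protein of the small ribosomal subunit, had a peak 5 bp from its start with a signal of 324, and the replicates were close to each other, with signals of 157 and 164 at ranks 358 and 318. These 3 peaks were the only ones on the chromosome with a signal over 300. Gyf, a translational regulator with a GYF domain, followed at 254, with ranks 447 and 862. An intergenic peak at chr4:424565-425008, 1280 bp from lncRNA:CR43437 and between dati and lgs, had a signal of 230 and ranks of 826 and 825. The start of ci, the transcription factor of Hedgehog signalling, and of its antisense RNA asRNA:CR43957 shared a peak of signal 228, at ranks 1157 and 592. Promoters of Arl4, a small GTPase, CG32017 and Asator, a tau-tubulin kinase family member, had signals of 226, 225 and 221. Peaks of a similar strength stood at pho, which recruits Polycomb (196), CaMKII (194), a kinase of synaptic plasticity, and Mitf (189), a regulator of lysosomal genes.

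Promoter peaks sat close to start sites. Of the 34, 20 had their summit within 100 bp of a start and 32 within 200 bp, with a median offset of -30.5 bp (range -334 to 218, negative upstream). Upstream summits numbered 24 and downstream ones 10. The farthest was the pho peak, 334 bp upstream. For genes with several starts the peak marked some and not others: pan, the Wnt pathway's TCF factor, had an optimal peak at 2 of 4 starts, Asator at 1 of 5, Mitf at 1 of 3, Sox102F, a Sox factor, at 2 of 3, and ci, CaMKII and Cadps at 1 of 2 each. CaMKI, a calcium-dependent kinase, had 2 optimal peaks that together reached all 3 of its starts. These counts depend on the 500 bp window. Optimal peaks in introns lay 508 bp from an unmarked start of Mitf and 634 bp from an unmarked start of Asator.

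**Figure D3:**
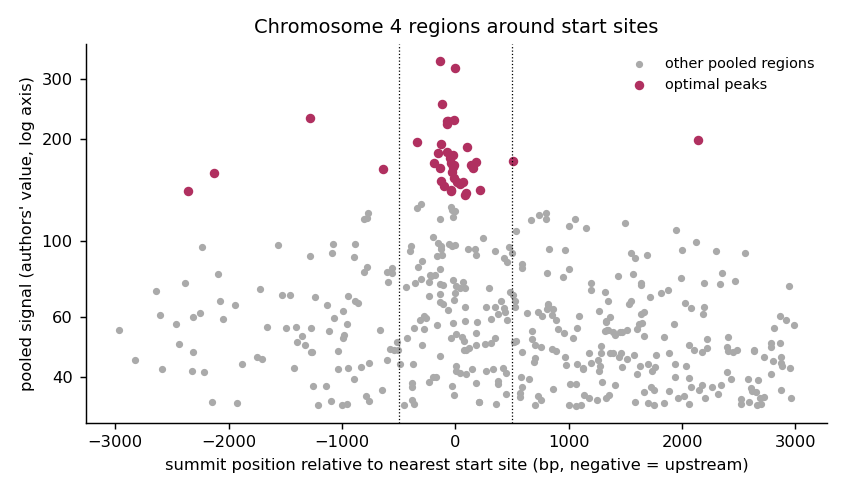
Signal against distance of the summit from the nearest start site for chromosome 4 regions within 3000 bp of one, on a log signal axis, with optimal peaks coloured and dotted lines at 500 bp. Optimal promoter summits cluster near the start, at a median offset of -30.5 bp; the strongest peak, 3902 bp from a start, lies outside the range.

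Among genes, 30 of the 80 protein-coding genes of chromosome 4 had an optimal summit within 500 bp of a start site (37.5%, 26.9 to 49.0), against 12.6% of all protein-coding genes and 14.7% (29 of 197) of pericentric ones. The strongest regions of replicates 2 and 3 alone gave 32 and 28 genes. A region of any strength lay at the promoter of 75 of 80 genes (93.8%), against 49.0% of all and 65.5% (129 of 197) of pericentric ones. Among genes with 1 start site these shares were 88.1% on chromosome 4 and 53.7% in pericentric sequence. With 2 to 3 start sites they were nearer, at 35 of 35 and 48 of 54 (88.9%). The difference in optimal peaks was present in genes of like number of starts. With 1 start site 33.3% of genes (14 of 42) had an optimal peak, against 9.10% elsewhere and 14.2% of pericentric genes. With 2 to 3 start sites 14 of 35 had one, against 20.1% elsewhere and 16.7% of pericentric genes. Of genes with 4 or more, 2 of 3 did, against 33.6% elsewhere and 1 of 9 pericentric genes. The 5 genes with no promoter region were CG31997, yellow-h, CG1909, fd102C, a forkhead factor, and Kif3C, which had 24 regions in its body. Of 34 noncoding genes and pseudogenes, 4 had an optimal peak: lncRNA:CR44440, asRNA:CR43957, asRNA:CR44029 and asRNA:CR44031.

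By role, housekeeping genes had the highest share with an optimal promoter peak: 8 of 13 (61.5%, 31.6 to 86.1), with a median of 153 for the strongest promoter signal of each gene. They were RpS3A, Arl4, Rad23 (a repair and ubiquitin receptor), Asator, gw (the microRNA effector GW182), Gyf, eIF4G1 (a translation initiation factor) and ATPsynbeta (a subunit of ATP synthase). The other 5 had low signals: 37.3 at JYalpha, 48.6 at Zip102B, 49.97 at ND-49, a subunit of respiratory complex I, 64.0 at PMCA, a calcium pump, and 73.1 at Tdg, a DNA glycosylase. The list was therefore split, with no member between 73.1 and the lowest optimal value of the list, 141.2 at Rad23. Signalling and guidance genes had a peak in 5 of 12, at a median signal of 110: the semaphorin receptors PlexA and PlexB, the adaptor Crk, the activin ligand Actbeta, and the kinase Dyrk3. The replicates differed here, with 6 genes from the strongest regions of replicate 2 and 3 from those of replicate 3, and PlexA, Actbeta and Dyrk3 were among the strongest of replicate 2 only. Transcription factors had one in 6 of 17, also at 110: ci, pan, Sox102F, toy, pho and Mitf. Synaptic genes had 2 of 7 (118; CaMKII and Cadps), muscle and cytoskeletal genes 1 of 4 (93.8; Zyx, a focal adhesion protein), and genes in no list 8 of 27 (94.8). The intervals of these shares overlap, and no difference between lists was tested. The lists were written with earlier results known. The housekeeping list was meant to cover translation, mitochondria, repair, transport and RNA silencing, and it also holds the kinase Asator. Its share depends on that choice of members.

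**Figure D4:**
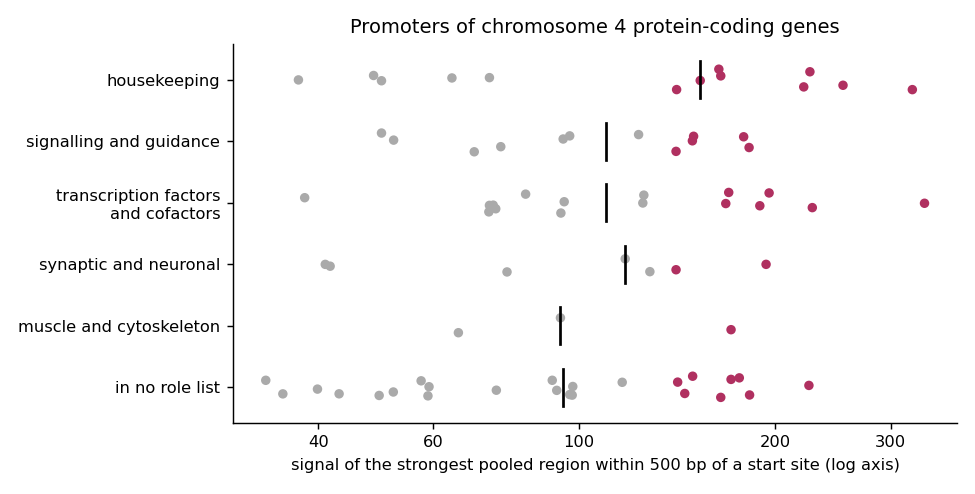
Strongest promoter signal of the 75 protein-coding genes of chromosome 4 with a promoter region, by role, on a log axis, with optimal peaks coloured and the median of each group as a black line. Housekeeping genes have the highest median, 153, and hold both optimal peaks and the low values from 37.3 to 73.1.

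Optimal peaks were unevenly spread along the chromosome. By 100-kb bins there were 44 to 87 pooled regions in each of the first 13 bins and none beyond position 1300001, where 95.4% of bases are annotated as transposable elements. The 8 optimal peaks of bin 1 to 100000, of 400001 to 500000 and of 1000001 to 1100000 made up the 3 highest counts, while 500001 to 600000 held none among its 49 regions. Of the 46 optimal peaks 25 were proximal to the chromosome's midpoint, as were 383 of the 806 regions. Counting neighbouring peaks with summits at most 5000 bp apart as a run, 20 of the 46 were in 7 runs and 26 stood alone. The largest run held 6 peaks in 13423 bp, at chr4:56266-69688, and included ci, RpS3A and pan. Beside the ci promoter it held a peak in an intron and a peak in an exon of asRNA:CR43957 (signals 159 and 136.6) and an intergenic peak of signal 198, the one with the full DREF site printed above. The second run held 4 peaks in 5066 bp at PlexA, asRNA:CR44031, CG11076 and ATPsynbeta. The longest stretches with no region were 1272991 to 1348131, which is 97.1% transposable element, 3401 to 40887, and 1199588 to 1218922, inside Mitf.

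The 12 optimal peaks away from promoters included 5 already named: the distal zfh2 peak, the lncRNA:CR43437 peak, and 3 near ci counting the intergenic one. The rest were in a Mitf intron (172), in the 3′ untranslated regions shared by sv, a Pax2 factor, and Cals (172), in a coding exon of CG33978 (170), near mir-9385 (165), in an Asator intron (163), in a coding exon of RhoGAP102A (158) and between ey, a Pax6 factor, and bt (140.6).

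The optimal peaks were not ranked identically by the replicates. Their ranks ran from 19 to 6224 in replicate 2 (median 1461.5) and from 24 to 5130 in replicate 3 (median 1624.5). Among each replicate's own strongest 2478 were 39 and 38 of them (84.8% and 82.6%), 31 were in both (67.4%), and none was in neither. Optimal peaks elsewhere gave nearly the same shares, 84.8% and 82.9%, with 69.0% in both. The ranks differed by more than 2 times for 15 of 46, with a median ratio of 1.72. The most discordant, at a ratio of 5.49, was one of the CaMKI pair, at rank 6224 in replicate 2 and 1134 in replicate 3, while its neighbour was at 1306 and 5130: the replicates favoured opposite members of the pair. Spearman's rho of the replicate ranks was 0.535 over 547 chromosome 4 regions overlapped in both replicates, and 0.645 over 17544 regions elsewhere. Over the 46 optimal peaks it was 0.220. These 46 were restricted to high pooled signal, so their rho cannot be compared with those of regions of all strengths. No rho over optimal peaks elsewhere was taken. The points of each set share the same 2 libraries. Of all 806 regions, 670 were overlapped in replicate 2, 668 in replicate 3 and 15 in neither (1.86%, against 3.79% elsewhere).

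**Figure D5:**
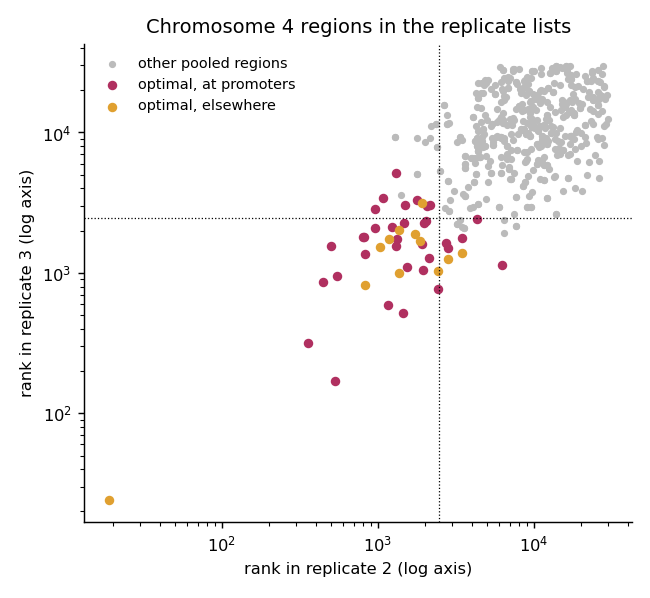
Rank in replicate 2 against rank in replicate 3 of the 547 chromosome 4 regions overlapped in both, on log axes, with optimal peaks at promoters in red, optimal peaks elsewhere in orange, other regions in grey and dotted lines at rank 2478. The zfh2 peak, at ranks 19 and 24, is at one end, and the CaMKI peaks, at 6224 against 1134 and 1306 against 5130, are the optimal peaks farthest from equal ranks.

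Peaks next to the cutoff differed little in signal from those beyond it. The lowest optimal signals on the chromosome were 136.5 (CaMKI), 136.6 (asRNA:CR43957), 139 (Sox102F), 140.6 (between ey and bt) and 141.0 (Cadps). The highest of the others were 130.8 near mir-9385, 128.5 at mGluR, a glutamate receptor, 125.8 at Hcf, a chromatin cofactor, 125.4 at lgs, a Wnt coactivator, and 123.5 at mav, a TGF-beta ligand. Over the whole list the cutoff was sharper still, at 132.916 against 132.902. Membership of the genes named at either side thus rests on small differences, and lgs ranked 1414 in replicate 2 while mGluR and Hcf ranked 2106 and 2072 in replicate 3.

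The DREF and BEAF-32 letters were about as common around chromosome 4 optimal summits as around those elsewhere. The GAGA letters were in a smaller share, as they were around pericentric optimal summits. Within 100 bp of the summit, the DREF letters were in 6.52% of chromosome 4 optimal peaks (3 of 46), 5.47% of those elsewhere and 2.30% of all regions. The BEAF-32 core was in 34.8%, 32.9% and 25.6%. The GAGA letters were less common, in 10.9% (5 of 46, 3.62 to 23.6), against 28.4% of optimal peaks elsewhere and 25.5% of all regions, but in the strongest regions of replicates 2 and 3 they were in 22.4% and 16.3%. The core promoter E-box (CAGCTG) was in 2.17% (1 of 46, 0.0550 to 11.5), an interval that holds the shares of the others, 10.6% and 10.3%; in the strongest regions of replicates 2 and 3 it was in 6.12% and 2.04%. The Motif 1 core was in 2.17%, against 4.15% and 2.91%. The Motif 1 core was searched as GGTCACA, a factor's site at housekeeping promoters. The Pho core was in 19.6%, against 28.5% and 33.3%, the TATA box in 34.8%, against 28.9% and 22.3%, and the letters of Zelda, an activator of the early embryonic genome, searched as CAGGTAG, in 0 of 46 (95% exact upper bound 7.71%), against 0.946% and 1.25%. The 760 chromosome 4 regions outside the optimal list give the shares for the chromosome itself. There the DREF letters were in 3.29%, the BEAF-32 core in 29.2%, the GAGA letters in 20.4% and the E-box in 5.39%. The Motif 1 core was in 1.18% of them, the Pho core in 27.9%, the TATA box in 31.7% and the Zelda letters in 1.84%. In the 44 pericentric optimal peaks, the GAGA letters were in 13.6%, the E-box in 2.27% and the Pho core in 13.6%. Their DREF share was 2.27%, their BEAF-32 share 40.9% and their TATA box share 43.2%. The GC content of the windows was 35.3% in chromosome 4 optimal peaks and 38.3% in those of the arms, and a motif's frequency depends on base composition, whose part was not tested. The absence of these letters says nothing about the factor.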

How the data were processed

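Candidate regions for GFP-tagged ADD1 were taken from the lists that the authors deposited with dm6 coordinates in the narrowPeak layout. Per the deposited text, each replicate's list and the pooled list hold peaks together with background, as IDR needs, and the optimal list holds those past its threshold. The signal is the deposited value per region, whose scale is unstated, and the aligner, caller and IDR cutoff were not given in the sources used here. Read depth is unknown, so intervals (95% exact Clopper-Pearson) cover counting error only. Lists were ranked by signal. A pooled region was optimal when chromosome, start, end and summit were identical in the optimal list. Its rank in a replicate was that of the best-ranked region overlapping it by at least 1 bp. Summits were placed on Ensembl release 115 gene models and the RefSeq dm6 sequence. Annotated transposable elements and mature microRNA entries gave no start sites. Most regions have a fixed width with the summit at the centre, which limits how finely a summit is placed. With 1 group of 2 replicates and no read counts, no test was made. Values are set beside the same value on the other chromosomes, over all regions or genes, or on the chromosome arms and in pericentric sequence. Pericentric sequence was set at the centromere side of each arm (beyond 22 Mb on 2L, 23 Mb on 3L and 22 Mb on X, before 5.6 Mb on 2R and before 4.2 Mb on 3R). Genes named are those at optimal summits, those nearest the other optimal peaks, regions next to the cutoff, genes with most regions, and members of 5 lists by role. Members, lists and motifs were chosen with earlier results of these data known. Overlap, distance and motif searches were tested on simulated data (Python 3.11.15, pandas 2.3.3, scipy 1.17.1). Alternatives were other windows, stronger peaks, other overlap rules and each replicate's own list.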

Additional observations from a re-analysis of the deposited data

How the results depend on the processing

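No paired analysis was possible because the data form 1 group. Of 105 values recomputed under alternatives, 85 stayed inside the interval (or, for counts, within 1.5 times) of the value given. Intervals from 46 peaks are wide, and some alternatives are subsets of the same peaks, so this count does not measure robustness. The GAGA share, for example, went from 10.9% to 22.4% in the strongest regions of replicate 2 and stayed inside. With the 1239 strongest optimal peaks, chromosome 4 kept 13 peaks (1.61% of its regions) at the promoters of 10 protein-coding genes, and all of those 13 overlapped the strongest regions of replicate 2 and of replicate 3 (100%). Of the motifs there, the Motif 1 core and the E-box fell to 0% and the AT repeat to 7.69%. Restricting to peaks among the strongest of both replicates left 3.85% of regions and the E-box at 0%. From each replicate's own list, the count of strongest regions was 49 in both, at the promoters of 32 and 28 protein-coding genes, and 67.3% and 65.3% lay at promoters. Motif shares moved with the window, since a longer window holds more letters. Within 50 bp of summits the Motif 1 core and E-box were at 0%, the TATA box at 19.6%, the Pho core at 6.52% and the AT repeat at 8.70%. Within 200 bp the BEAF-32 core was at 65.2%, the TATA box at 56.5%, the AT repeat at 39.1% and the CA repeat at 34.8%. In the strongest regions of the replicates the TATA box was at 42.9% (replicate 2) and 20.4% (replicate 3). The cause of these differences was not tested. Windows of 200 and 1000 bp around start sites gave 69.6% and 78.3% of optimal summits at promoters, against 73.9% at 500 bp. The comparisons of each replicate's own list by place were chosen after seeing the data.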

Other observations

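Among transposable elements, the 160 summits of chromosome 4 fell in 23 families. INE-1, the commonest family of the chromosome, held 82 of them over 344 annotated elements, the 1360 element held 23 and Cr1a 9. The 23 in 1360 had a median signal of 60.6, above the median of 45.8 for all elements. The best-ranked region in any element lay in a 1360 copy near lncRNA:CR46488 at chr4:181620-182063, at rank 2885 with a signal of 123, and so not in the optimal list. Repeats of ATATAT were within 100 bp of 23.9% of optimal summits on chromosome 4 and 18.01% of those elsewhere. They were near 18.4% of the other chromosome 4 regions and 15.1% of all regions. Repeats of ACACAC were near 19.6% and 16.7% of these optimal summits, beside 7.76% of the other chromosome 4 regions and 16.5% of all regions. No cause was tested for any of these values. The lists give no read counts, so depth per sample and the precision of any single signal are unknown, and no input or untagged sample was used to give a background for chromosome 4.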
